A study of Homo sapiens with 12 samples.

Results

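Among the hnRNPK peaks called in HCT116 cells, 255 of 16214 (1.57%) lay on coding exons, away from the ends of genes, and these 255 peaks are described here. A peak was taken when its midpoint fell in a coding sequence (CDS) segment of a protein-coding gene in GENCODE release 44 and lay more than 1 kb from the 5′ and 3′ end of every gene record. The rule uses position only and no score. HCT116 is an established human colorectal carcinoma line, and chromatin immunoprecipitation with sequencing (ChIP-seq) was done with an antibody against hnRNPK in 3 groups of cells. CRLM1-OE cells overexpressed CRLM1, a long noncoding RNA, from a puromycin-selected lentiviral vector, the empty control carried no insert, and the antisense control was a further control construct whose exact content the labels do not give. Cells of all 3 groups also overexpressed hnRNPK, so no group shows the protein at its natural level. Each group had 2 IP libraries, each with an input library and a peak list of its own, and nothing in the labels says that the 2 came from separate cultures, so p-values measure only the spread between these lists.

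hnRNPK is a nuclear protein that binds RNA and single-stranded DNA through its KH domains and favours stretches rich in C. It acts in transcription, splicing and the handling of mRNA. Coding exons are mostly short, are separated by long introns and are richer in G and C than introns. The coding strand of an exon has the sequence of the mRNA, and the template strand is its complement, so a run of C on the template strand is a run of G on the coding strand.

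To show what such sites look like, the central 150 bases are given for the 6 coding-exon regions that lead by the number of lists and then by score rank, passing over the sixth, on PLEC, for the seventh, on SLC35B2. All are from hg38, on the coding strand and 5′ to 3′, with runs of 3 or more C in capitals. The NACA window (chr12:56716193-56716342, minus strand) lay wholly within its exon and held 5 such runs, the EVI5L window (chr19:7862417-7862566, plus strand) had 118 bases in its exon and 4 runs, and the TRNAU1AP window (chr1:28577461-28577610, plus strand) had 111 bases in its exon and 5 runs. The MUC3A window (chr7:100952053-100952202, plus strand) and the ZNF469 window (chr16:88437521-88437670, plus strand) lay wholly within their exons and held 4 runs each. The SLC35B2 window (chr6:44256795-44256944, minus strand) had 84 bases in its exon and 6 runs.
NACA: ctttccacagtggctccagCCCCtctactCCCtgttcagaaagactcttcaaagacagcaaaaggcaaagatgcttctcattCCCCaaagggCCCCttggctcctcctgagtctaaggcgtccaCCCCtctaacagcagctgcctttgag
EVI5L: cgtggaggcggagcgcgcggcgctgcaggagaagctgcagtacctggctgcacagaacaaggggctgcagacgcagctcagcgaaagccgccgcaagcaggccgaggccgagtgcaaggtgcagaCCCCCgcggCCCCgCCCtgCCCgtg
TRNAU1AP: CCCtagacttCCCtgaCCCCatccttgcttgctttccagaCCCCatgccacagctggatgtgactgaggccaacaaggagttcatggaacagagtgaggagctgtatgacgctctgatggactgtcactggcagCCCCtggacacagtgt
MUC3A: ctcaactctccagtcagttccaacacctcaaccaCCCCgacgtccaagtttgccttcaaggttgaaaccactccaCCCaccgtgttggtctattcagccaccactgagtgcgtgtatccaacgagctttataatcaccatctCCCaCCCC
ZNF469: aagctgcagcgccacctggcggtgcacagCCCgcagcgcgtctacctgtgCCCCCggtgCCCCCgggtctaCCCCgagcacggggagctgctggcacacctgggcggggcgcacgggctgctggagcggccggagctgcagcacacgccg
SLC35B2: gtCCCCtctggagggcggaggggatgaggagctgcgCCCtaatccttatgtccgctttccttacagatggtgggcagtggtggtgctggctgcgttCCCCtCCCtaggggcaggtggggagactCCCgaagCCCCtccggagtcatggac

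These windows ranged in GC content from 52.7% in MUC3A to 76.0% in ZNF469. A stretch of CCC on the coding strand is common in exons, since 79.4% of all 150-base windows centred on an eligible coding base hold at least 1, as did 222 of the 255 central windows of coding-exon peaks (87.1%). For the template strand the shares were 76.7% and 82.7%. A match is a description of the letters and not a binding site. Eligible coding bases are the 29160469 bases of the genome that meet the same position rule as the peaks. They lie in 17905 genes and make up 0.993% of the sequenced bases of chromosomes 1 to 22, X and Y.

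The first question was whether hnRNPK peaks fell on coding exons more often with CRLM1-OE. In the CRLM1-OE lists, 73 of 4339 peaks in replicate 1 and 54 of 3163 in replicate 2 lay on coding exons. In the empty control, 14 of 1619 in replicate 1 and 43 of 2607 in replicate 2 did so, and in the antisense control 36 of 2262 in replicate 1 and 35 of 2224 in replicate 2. As a share of its list this was 1.68% (95% Wilson interval 1.34 to 2.11%) and 1.71% (1.31 to 2.22%) for CRLM1-OE, 0.865% (0.516 to 1.45%) and 1.65% (1.23 to 2.21%) for the empty control, and 1.59% (1.15 to 2.195%) and 1.57% (1.13 to 2.18%) for the antisense control. The intervals cover counting error only, and those of all 6 lists overlap. CRLM1-OE had the highest share in both replicates, but 5 of the lists lay between 1.57% and 1.71% and empty control replicate 1 stood apart below them.

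The mean share of the CRLM1-OE lists was 1.69% ± 0.0176 (SD, n = 2), that of the empty control lists 1.26% ± 0.555 (SD, n = 2) and that of the antisense control lists 1.58% ± 0.0126 (SD, n = 2). The difference was 0.438 percentage points against the empty control and 0.112 against the antisense control, each with an exact permutation p of 0.333, which is the smallest that 2 lists against 2 allow. Against the 4 control lists together it was 0.275 points (exact permutation p = 0.400, with 0.133 the smallest possible). With a distance of 2 kb from gene ends in place of 1 kb, the shares were 1.27% and 1.23% with CRLM1-OE, 0.865% and 1.34% with the empty construct and 0.928% and 1.26% with the antisense construct, so that CRLM1-OE no longer had the highest share. The differences were then 0.147 points from the empty control, 0.157 from the antisense control and 0.152 from the 4 controls. Without empty control replicate 1, at 1 kb, the difference from the empty control was 0.0454 points and that from the remaining 3 controls was 0.0899 points. The lists themselves differed in length, and the mean log2 number of all peaks was higher with CRLM1-OE by 0.85 against the empty control and by 0.72 against the antisense control. The number of coding-exon peaks was higher in CRLM1-OE by 1.36 on the log2 scale against the empty control and by 0.82 against the antisense control, again with an exact permutation p of 0.333 each. Read depth is unknown, and its part in these numbers was not tested.

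**Figure D1:**
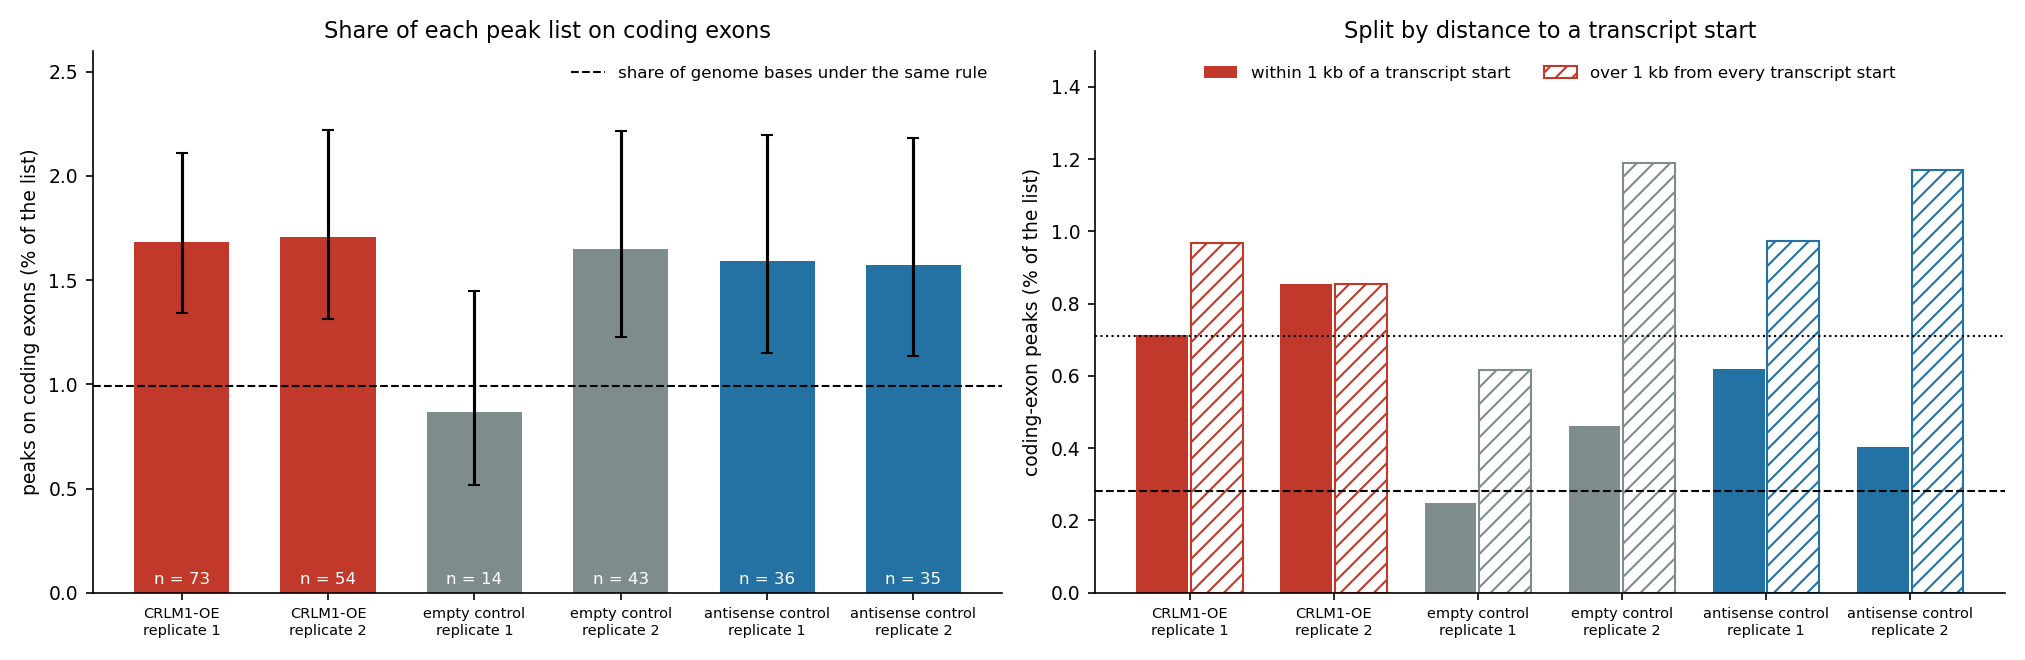
Left, peaks on coding exons as a percentage of each peak list, with 95% Wilson intervals and the number of peaks (n), and the dashed line at the 0.993% of the genome that meets the same rule. Right, the same peaks split into those within 1 kb of a transcript start (filled bars, dashed line at 0.281% of the genome) and those farther away (hatched bars, dotted line at 0.712%). The filled bars are highest in the 2 CRLM1-OE lists, and the hatched bars are not.

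Coding-exon peaks were 1.69 and 1.72 times as frequent as the genomic share of such bases with CRLM1-OE, 0.871 and 1.66 times with the empty construct, and 1.60 and 1.59 times with the antisense construct. The share exceeded that of the genome in 5 of 6 lists, by a mean of 0.519 percentage points ± 0.321 (SD, n = 6 lists; exact sign-flip permutation p = 0.0625, adjusted p = 0.0938). The excess was 0.294 points with 2 kb from gene ends. Set against intronic peaks under the same distance rule, there were between 4.41 and 5.18 coding-exon peaks per 100 intronic peaks in those 5 lists and 2.36 in empty control replicate 1.

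A coding exon can lie near an alternative transcript start inside its gene, and 97 of the 255 peaks (38.04%) had their midpoint within 1 kb of the 5′ end of some annotated transcript, where 28.3% of eligible coding bases lie. These were 31 and 27 peaks in the CRLM1-OE lists, 4 and 12 in the empty control lists and 14 and 9 in the antisense control lists. Out of all peaks of a list, near-start exons took 0.714% and 0.854% with CRLM1-OE, 0.247% and 0.460% with the empty construct, and 0.619% and 0.405% with the antisense construct, where 0.281% of the genome lies near a start under the same rule. The value of either CRLM1-OE list was higher than that of any control list, and no test was made of this. The remaining 158 peaks, over 1 kb from every transcript start, made up 0.968% and 0.854% of the CRLM1-OE lists, 0.6177% and 1.19% of the empty control lists, and 0.973% and 1.17% of the antisense control lists, against 0.712% of the genome. For these the groups overlapped, and CRLM1-OE minus the mean of the 4 controls was -0.0763 percentage points (exact permutation p = 0.800). The split at transcript starts was chosen after the shares had been seen. Peaks within 1 kb of a protein-coding gene start, which the rule leaves out, were 266 of 4339 and 366 of 3163 with CRLM1-OE. They were 21 of 1619 and 93 of 2607 with the empty construct, and 127 of 2262 and 145 of 2224 with the antisense construct. As a share, antisense control replicate 2 there lay above CRLM1-OE replicate 1. Whether the near-start values belong to coding exons or to peaks near starts at large was not tested.

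The second question was the base composition of the peaks. The GC content ran from a lowest value of 30.6% through a median of 59.2% to a highest of 76.0% in CRLM1-OE replicate 1, and from 31.8% through 57.1% to 75.7% in replicate 2. In the empty control it ran from 31.0% through 40.5% to 77.6% in replicate 1 and from 32.5% through 58.9% to 77.7% in replicate 2. The antisense control lists ran from 31.6% through 58.1% to 76.6% and from 28.9% through 51.8% to 75.7%. Each list therefore spanned AT-rich as well as very GC-rich peaks, measured over the whole peak and not over its exon alone, and the lists differed in how many of each they held. Peaks above 65% GC numbered 22, 17, 1, 13, 11 and 6 in CRLM1-OE replicates 1 and 2, empty control replicates 1 and 2, and antisense control replicates 1 and 2, and peaks under 45% GC numbered 17, 13, 9, 7, 10 and 12. These were out of 73, 54, 14, 43, 36 and 35 coding-exon peaks in the same order, so the counts do not compare between lists without those totals.

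The mean GC content of coding-exon peaks was 56.3% ± 12.3 (SD over 73 peaks) and 55.8% ± 12.2 (54 peaks) in CRLM1-OE, 44.4% ± 13.1 (14 peaks) and 58.8% ± 12.01 (43 peaks) in the empty control, and 55.7% ± 12.7 (36 peaks) and 52.3% ± 12.8 (35 peaks) in the antisense control. Windows of the list's median peak width centred on every eligible coding base had a mean GC content between 47.4% and 48.0%. Coding-exon peaks were thus richer in GC than such windows in 5 of 6 lists, the exception being empty control replicate 1. The mean difference was 6.22 percentage points ± 4.95 (SD, n = 6 lists; exact sign-flip permutation p = 0.0625, adjusted p = 0.0938), and 8.08 points without that list. In each list coding-exon peaks also lay above the intronic peaks, whose mean GC content was 44.8%, 43.4%, 38.8%, 45.8%, 43.2% and 42.7% in the same order of lists. That difference had 1 sign in all 6 lists, 10.8 points ± 2.79 (SD, n = 6; exact sign-flip permutation p = 0.0312, the smallest possible), but its p adjusted over the 6 tests of this kind was 0.0938. The windows on eligible coding bases also lay above the intronic peaks in all 6 lists. The sign is thus a property of exons at large as well.

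Peaks near a transcript start were the GC-richer ones, with a mean of 61.1% over 97 peaks against 51.7% over the 158 others, and in each of the 6 lists the near ones had the higher mean. Of the 70 peaks above 65% GC, 43 were near a transcript start and 27 were not. Over 1 kb from every transcript start, coding-exon peaks differed from the matching windows by 3.87 points (exact sign-flip permutation p = 0.156) and from the matching intronic peaks by 8.21 points (exact sign-flip permutation p = 0.0312, adjusted p = 0.0938). CpG dinucleotides followed the GC content, with 39.1 and 41.4 per kb with CRLM1-OE, 22.2 and 45.4 with the empty construct and 34.8 and 26.8 with the antisense construct, where windows on eligible coding bases held 19.8 to 21.0. Peaks within 1 kb of a protein-coding gene start, which the rule leaves out, had a mean GC content of 63.2 to 66.0% in 5 lists and 59.0% in empty control replicate 1.

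Between groups, mean GC content was 56.0% ± 0.334 (SD, n = 2) with CRLM1-OE, 51.6% ± 10.2 (SD, n = 2) with the empty construct and 54.0% ± 2.41 (SD, n = 2) with the antisense construct. The difference of 4.41 points from the empty control was smaller than the spread of that group (exact permutation p = 1) and became -2.78 points without empty control replicate 1. Against the antisense control the difference was 2.06 points, with an exact permutation p of 0.333, the smallest possible. It was 0.357 points without antisense control replicate 2 and 3.77 points without antisense control replicate 1, so its size rests on which of these lists is used.

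**Figure D2:**
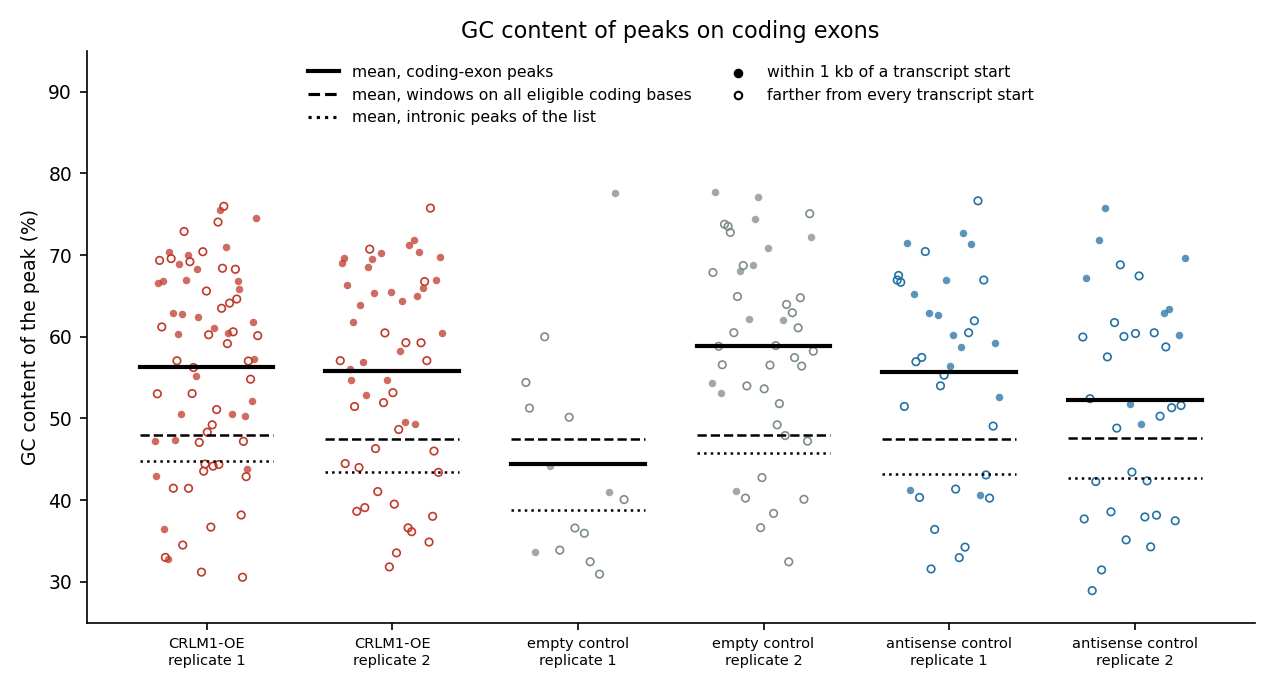
GC content in percent of each coding-exon peak (points) in the 6 lists, filled where the peak lies within 1 kb of a transcript start and open otherwise, with the mean of the list (solid bar), of windows on all eligible coding bases (dashed bar) and of the intronic peaks of the list (dotted bar). The solid bar lies above the dashed bar in all lists but empty control replicate 1, and above the dotted bar in all 6.

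Because hnRNPK favours runs of C in RNA, runs of 3 or more C were counted on both strands. On the coding strand, coding-exon peaks held 24.5 and 23.5 runs per kb in CRLM1-OE, 13.2 and 25.6 in the empty control, and 23.1 and 23.8 in the antisense control. On the template strand they held 18.9 and 21.7, 11.5 and 21.4, and 20.7 and 18.2 runs per kb. The coding strand had more in all 6 lists, by 3.54 runs per kb ± 1.84 (SD, n = 6; exact sign-flip permutation p = 0.0312, adjusted p = 0.0938). Windows on eligible coding bases held 14.5 to 14.8 runs per kb on the coding strand and 13.6 on the template strand, so an excess on the coding strand is also a property of exons at large. Whether the excess in the peaks was larger than that in the windows was not tested. ChIP-seq peaks carry no strand, and which strand was bound cannot be told from them.

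**Figure D3:**
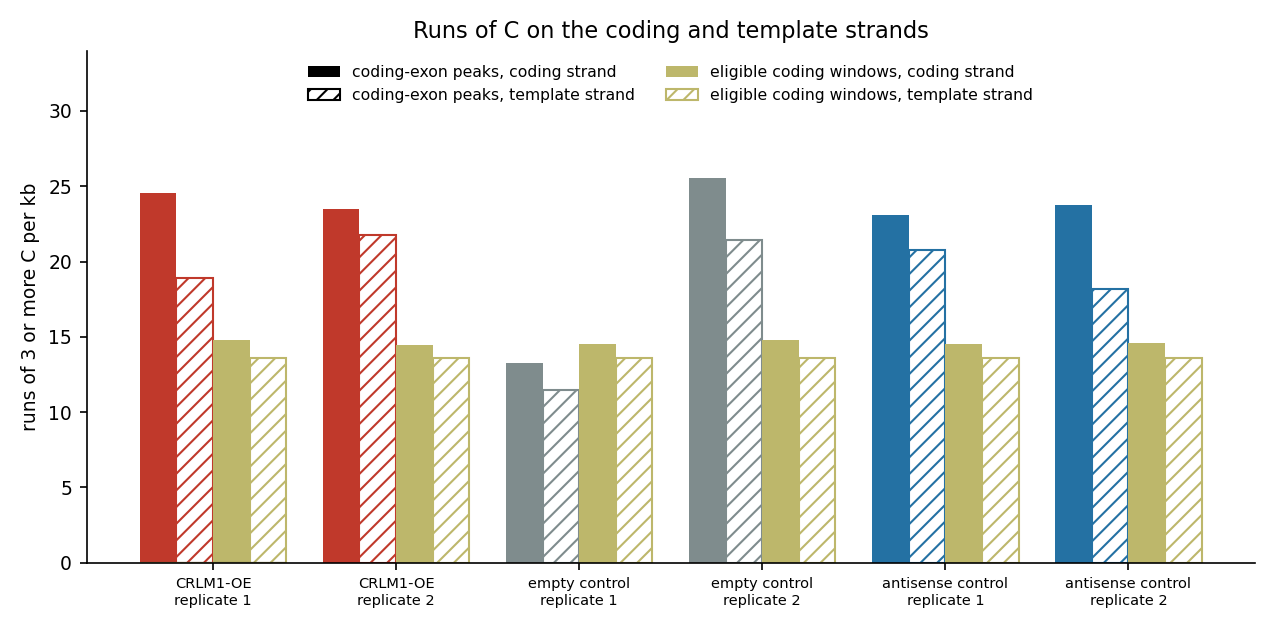
Runs of 3 or more C per kb in coding-exon peaks on the coding strand (solid) and the template strand (hatched) of each list, beside the same densities in windows on all eligible coding bases (olive). Bars of 5 lists stand between 18.2 and 25.6 per kb and those of empty control replicate 1 at 13.2 and 11.5, and the solid bar is the higher of each pair.

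Single loci spread widely around these means. The peak on IL31RA (chr5:55895955-55896867, antisense control replicate 2), the receptor of interleukin 31, held 60 runs of C on the coding strand and 3 on the template strand, and was the highest-scoring coding-exon peak of its list. The NACA peak of antisense control replicate 1 held 54 and 12. On SPACA6, a sperm membrane gene, the order was turned, with 23 runs on the coding strand and 59 on the template strand (chr19:51689106-51690012, antisense control replicate 1).

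The third question was which exons carried the peaks. The host exon, measured whole with any untranslated part, had a median length of 206 bases (range 43 to 13409) and 223 bases (81 to 4574) in CRLM1-OE, 255.5 bases (69 to 13761) and 254 bases (83 to 4524) in the empty control, and 175.5 bases (36 to 7269) and 168 bases (66 to 5520) in the antisense control. A base drawn evenly from eligible coding bases lies in an exon of median length 187 bases, with quartiles at 127 and 884 bases. The 255 peaks had a median of 195 bases with quartiles at 137 and 614.5 bases, and the list medians differed from 187 by 26.7 bases on average ± 37.6 (SD, n = 6; exact sign-flip permutation p = 0.188, adjusted p = 0.225). Exons of 1 kb or more held 56 peaks (21.96%) against 24.0% of eligible bases, and exons under 100 bases held 27 peaks (10.6%) against 12.8%.

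The medians of the groups did not overlap, at 214.5 bases ± 12.02 (SD, n = 2) for CRLM1-OE, 254.75 ± 1.06 (SD, n = 2) for the empty construct and 171.75 ± 5.30 (SD, n = 2) for the antisense construct. CRLM1-OE lay 40.25 bases below the empty control and 42.75 bases above the antisense control, each with an exact permutation p of 0.333, the smallest possible. Within each list the exon lengths spanned more than 10-fold, and with the 1000 highest-scoring peaks of each list the difference from the empty control changed sign to 106.75 bases.

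Peaks were found along the whole transcript. The median rank of the host exon, counted from the 5′ end, was 5 and 6.5 in CRLM1-OE, 5.5 and 5 in the empty control, and 6.5 and 7 in the antisense control, and the base-weighted median of eligible coding bases was 7. On a scale from 0 at the 5′ end to 1 at the 3′ end of the transcript, the mean relative rank was 0.551 and 0.571, 0.554 and 0.476, and 0.578 and 0.529 in the same order, against 0.548 for eligible bases. The mean difference was -0.0053 ± 0.0371 (SD, n = 6; exact sign-flip permutation p = 0.875). CRLM1-OE differed from the empty control by 0.0461 (exact permutation p = 0.667) and from the antisense control by 0.0076 (exact permutation p = 1). The first coding exon held 29 peaks (11.4%, against 10.8% of eligible bases), the last held 47 (18.4% against 18.2%), 187 lay on internal coding exons and 8 on genes with a single coding exon, which count as first and last.

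**Figure D4:**
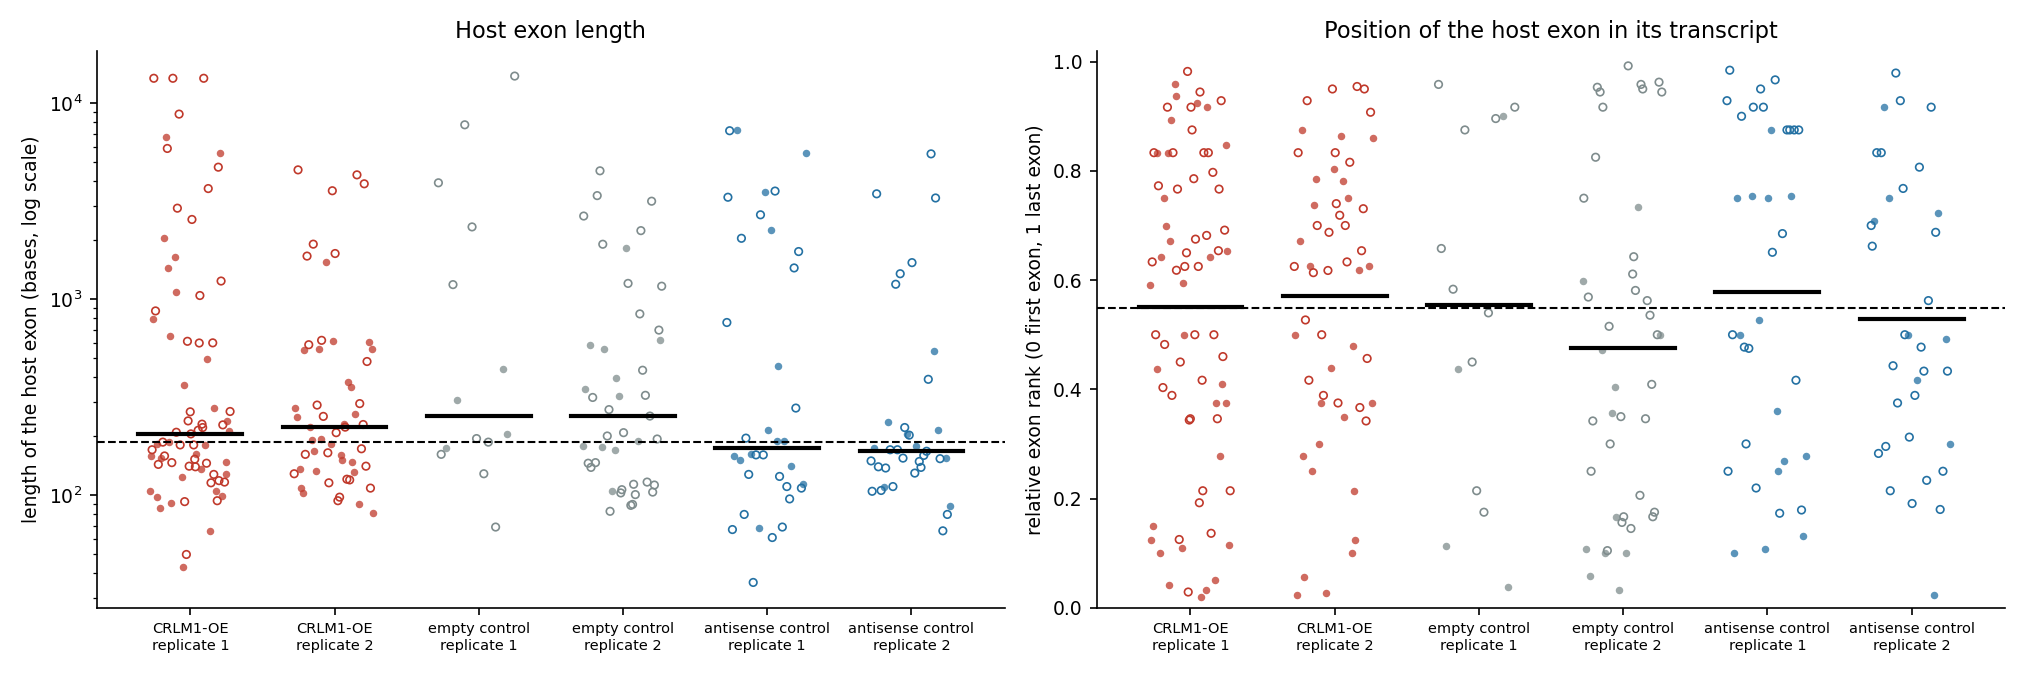
Left, length in bases of the host exon of each coding-exon peak on a log axis, with the median of each list (bar) and the base-weighted median of 187 bases (dashed line). Right, relative rank of the host exon, with the mean of each list (bar) and the base-weighted mean of 0.548 (dashed line). Filled points lie within 1 kb of a transcript start, and in both plots the lists overlap almost completely.

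The peaks were as a rule wider than the exons they were assigned to. The median width of coding-exon peaks was 527 and 779 bases in CRLM1-OE, 770 and 496 in the empty control, and 785 and 653 in the antisense control. In 182 of 255 (71.4%) the peak contained the whole exon, and the median share of the peak's bases that were coding was 38.03%. Only 79 peaks were coding over more than 50% of their length. A further 157 peaks with a coding midpoint lay within 1 kb of a gene end and were left out by the rule, and 63 of the 255 lay between 1 and 2 kb from one. Of the 255 host exons, 234 belonged to the canonical transcript of the gene and 21 to another transcript.

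By score, coding-exon peaks were ordinary members of their lists. The score is the peak caller's own value, whose lowest value in the files is 50. Of the coding-exon peaks, 62.7% scored under 60, as did 63.7% of all peaks, and their median position was at 51.5% of the list counted from the top. By list that position ran from 35.7% in antisense control replicate 1 to 64.4% in empty control replicate 1. Of the 255 peaks, 30 were in the top 10% of their list.

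The fourth question was whether the same exons were found again. Merging overlapping members gave 253 regions, of which 251 had a member in 1 list and 2 had members in 2 lists. The number of regions with a member in both lists of a group and no peak in any other list was 0 for each of the 3 groups. Counting an overlap of 1 base or more with any peak of another list, 18 of 255 coding-exon peaks (7.06%) were overlapped, and the share over all 16214 peaks was 7.41%. Intronic peaks were overlapped in 2.70% (156 of 5776) and peaks within 1 kb of a protein-coding gene start in 22.4% (228 of 1018). Among coding-exon peaks, 10 of the 97 near a transcript start and 8 of the other 158 were overlapped. Recurrence on coding exons was therefore near the background of the whole series.

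The region shared by CRLM1-OE replicate 1 and antisense control replicate 1 lay on NACA, which encodes the alpha subunit of the nascent polypeptide-associated complex at the ribosome. Both peaks fell on exon 3 of 9, a long exon of 5589 bases (chr12:56715871-56721459) that is included in the muscle form of the protein. The antisense control peak (chr12:56715572-56716965) ranked 40 of 2262 in its list with a score of 98.63, and the CRLM1-OE peak (chr12:56715612-56716138) ranked 3807 of 4339 with a score of 51.38. The same exon was thus near the top of one list and near the bottom of the other. Its window above shows CCCC stretches on the coding strand, and the antisense control peak had 54 runs of C on that strand.

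The other shared region lay on EVI5L, a gene of the TBC family of Rab GTPase regulators. The empty control replicate 2 peak (chr19:7862240-7862745) had its midpoint in exon 17 of 20, of 147 bases, and ranked 1406 of 2607. The antisense control replicate 1 peak (chr19:7862618-7863490) had its midpoint in exon 18, of 96 bases, and ranked 1470 of 2262. The peaks, with a GC content of 73.5% and 76.6%, thus met neighbouring exons.

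Regions with a member in 1 list held the best-ranked coding-exon peaks of all lists but antisense control replicate 1, which NACA led. TRNAU1AP, which encodes a partner of the selenocysteine tRNA, had the best-ranked coding-exon peak of CRLM1-OE replicate 1 (chr1:28576880-28578193, rank 55 of 4339), on its exon 9 of 9. A peak of CRLM1-OE replicate 2 overlapped it without being a member. Only 10.2% of the bases of the TRNAU1AP peak were coding. Its midpoint lay 1002 bases from a gene end, just past the 1 kb limit. MUC3A, a membrane mucin of the intestine, carried the peak at rank 77 of 4339 in the same list (chr7:100951711-100952545) on exon 2 of 12, 8805 bases long. SLC35B2, the Golgi transporter of the sulfate donor PAPS, had the best-ranked member of CRLM1-OE replicate 2 (chr6:44256076-44257665, rank 113 of 3163), and peaks of CRLM1-OE replicate 1, empty control replicate 2 and antisense control replicate 2 overlapped it. It lay within 1 kb of a transcript start, and its midpoint was 1020 bases from a gene end. Besides it, the CRLM1-OE replicate 1 peak on SYTL3, a synaptotagmin-like gene named here after its values were seen, was the only member overlapped by 3 other lists.

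In the control lists, PLEC, which encodes the cytolinker plectin, had the best-ranked member of empty control replicate 2 (rank 64 of 2607, score 162.91) on exon 31 of 32 on chromosome 8. ZNF609, a zinc finger gene, had that of empty control replicate 1 (chr15:64674663-64675332, rank 272 of 1619, score 67.78) on exon 5 of 10. NACA and IL31RA led antisense control replicates 1 and 2, IL31RA at rank 139 of 2224 on exon 7 of 15. The top member of empty control replicate 1 thus scored below that of any other list, and 0 of its 14 members were in the top 10% of the list.

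Further down the ranking came COMTD1 (chr10:75233667-75235637, CRLM1-OE replicate 2, GC 68.6%), a methyltransferase-domain gene, and EHD1 (chr11:64877653-64878940, empty control replicate 2, GC 68.1%), which acts in endocytic recycling. SPIRE2, an actin nucleator (chr16:89827922-89829233, GC 77.1%), and FASN, the fatty acid synthase (chr17:82092921-82093540, GC 68.7%), were also from empty control replicate 2, and SPACA6 was from antisense control replicate 1. COMTD1, EHD1, SPIRE2 and SPACA6 lay within 1 kb of a transcript start, and FASN did not. The midpoint of the COMTD1 peak was 1011 bases from a gene end, also just past the limit of the rule. Of the 12 regions ranked first, CRLM1-OE replicate 1 had members in 4, CRLM1-OE replicate 2 in 2, empty control replicate 2 in 5, and antisense control replicate 1 in 3. No region of these 12 had a member from empty control replicate 1 or antisense control replicate 2.

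The 255 peaks fell in 247 host genes, and 6 genes had members in 2 or more lists. ZNF469, a gene linked to brittle cornea syndrome, had 3 separate regions, all in CRLM1-OE replicate 1 and all on exon 3 of 3, which is 13409 bases long. They lay at chr16:88429399-88430145, chr16:88430167-88430840 and chr16:88437184-88438009, ranked 301, 423 and 96 of 4339, and had a GC content of 69.3%, 76.0% and 72.9%. No other list had a member on this gene, but 3 other lists had a peak on its body that was not a member. COL12A1 (collagen XII), CAPN12 (a calpain protease), MUC3A and PLEC each had 2 regions from 2 different lists.

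In COL12A1 the peaks were AT-rich, at 31.6% GC on exon 61 of 66 (chr6:75091157-75091862, antisense control replicate 1) and 33.6% on exon 8 (chr6:75187677-75189119, empty control replicate 1). In CAPN12 they were at 68.3% GC on exon 13 of 21 (chr19:38735224-38735807, CRLM1-OE replicate 1) and 62.8% on exon 1 (chr19:38743726-38744519, antisense control replicate 2). The second MUC3A peak was on exon 9 (chr7:100965916-100967194, antisense control replicate 2, GC 67.2%), and a peak of empty control replicate 2 overlapped it. In COL12A1, CAPN12 and MUC3A the lists thus met different exons, whereas both NACA members lay on 1 exon.

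Looking at the whole gene body, 98 of the 247 host genes (39.7%) carried a peak of any kind from a list other than those that made them hosts. Counted by peak, 109 of the 255 (42.7%) had a host gene with a peak from another list, where 32.7% of eligible coding bases lie in such genes. By list the shares were 39.7% and 35.2% with CRLM1-OE, 35.7% and 53.5% with the empty construct and 41.7% and 51.4% with the antisense construct, against 30.8 to 35.3% of eligible bases. The shares lay above those of the bases in each list, by the least in empty control replicate 1, and no test was made of them. The median host gene was 39.0 kb long, and the base-weighted median of eligible coding bases was 64.01 kb. HNRNPK, the gene of the precipitated and overexpressed protein, had no coding-exon peak in any list. Over all 6 lists it carried 1 peak, in CRLM1-OE replicate 2 (chr9:83970742-83971627, rank 1466 of 3163). The midpoint of that peak lay outside coding sequence, and its bases were 20.1% coding and 46.5% exonic.

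Gene families were counted from name patterns and set beside their share of eligible coding bases. The patterns do not take in every gene of a kind. Among the hosts, the ion channel genes NALCN, GRIN1, GRIN2C and ITPR2 fell outside them. So did DOT1L and BAZ2A, which act on chromatin, and the zinc finger genes SP1, ZFPM1 and WIZ. The counts and base shares are therefore those of the patterns and not of whole families. C2H2 zinc finger genes held 16 peaks (6.27%) on 14 genes, against 3.68% of eligible bases, or 9.39 peaks at that share. They were 7 and 2 peaks in CRLM1-OE, 3 and 0 in the empty control, and 2 and 2 in the antisense control, and 3 of the 16 were those on ZNF469. Collagen and laminin genes held 5 peaks (COL12A1 with 2, COL1A1, COL22A1 and LAMA1) against 2.31 at their base share, which were 0 and 0 in CRLM1-OE, 1 and 2 in the empty control, and 2 and 0 in the antisense control. Chromatin regulator genes held 4 (HDAC7, KMT2C, KMT2D and SMARCD3) against 3.43, and solute carrier genes held 4 (SLC13A4, SLC22A31, SLC35B2 and SLC3A2) against 4.73. No test was made of these counts.

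The other families held few peaks. Genes that matched the ion channel pattern held 2 (CACNA1B and TRPM3) against 3.34 at their base share, and mucin genes held 2 (both MUC3A) against 1.56. Cadherin and protocadherin genes held 1 (CDH15) against 2.37, dynein heavy chain genes 1 (DNAH17) against 1.68, keratin genes 1 (KRT84) against 0.372, and genes of hnRNP and SR proteins 1 (SRRM2) against 0.410. Of 43 colorectal cancer driver genes with eligible bases, 2 held a peak against 1.29 at their base share, the histone H3 lysine 4 methyltransferases KMT2C in antisense control replicate 1 and KMT2D in antisense control replicate 2.

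Of the 18 coding-exon peaks overlapped by other lists, 3 more are given here, chosen after their values were seen. GADD45B, a stress-response gene, had a member in CRLM1-OE replicate 2 (chr19:2476436-2477997, rank 211 of 3163) that was overlapped by peaks of CRLM1-OE replicate 1 and antisense control replicate 1. TNFRSF12A, the TWEAK receptor, had a member in CRLM1-OE replicate 1 (chr16:3020550-3022034) that was overlapped by CRLM1-OE replicate 2 and empty control replicate 1. GPX4, the glutathione peroxidase of lipid peroxides, had a member in antisense control replicate 1 (chr19:1105326-1106242) that was overlapped by CRLM1-OE replicate 2. All 3 lay within 1 kb of a transcript start.

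The peaks were unevenly spread over chromosomes. Chromosomes 12, 16, 17, 19, 20 and 22, the 6 whose share of coding-exon peaks was at least 1.5 times their share of eligible coding bases, held 115 of the 255 (45.1%), where 25.2% of those bases and 25.8% of all peaks lie. Of the coding-exon peaks of a list, 45.2% and 53.7% were on these chromosomes with CRLM1-OE, 7.14% (1 of 14 peaks) and 48.8% with the empty construct, and 41.7% and 45.7% with the antisense construct. The chromosomes were picked by these very counts, which are given as a description, and 5 of 6 lists were above 25.2%. Chromosomes 2, 3, 4 and 5 held 6, 8, 5 and 6 peaks, or 2.35%, 3.14%, 1.96% and 2.35% of the total, against 7.69%, 5.93%, 4.12% and 4.63% of eligible bases. The X chromosome held 0 coding-exon peaks although 3.75% of eligible bases lie on it, but it also held only 21 peaks of any kind (0.130% of all, on 5.27% of the sequenced bases). The sources used here do not say whether peaks on X were filtered, so the 0 cannot be read as a property of coding exons. With X left out of peaks and background, chosen after seeing the data, coding-exon peaks exceeded the share of the genome by 0.505 points in place of 0.519, and their GC content that of the windows by 6.18 points in place of 6.22.

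**Figure D5:**
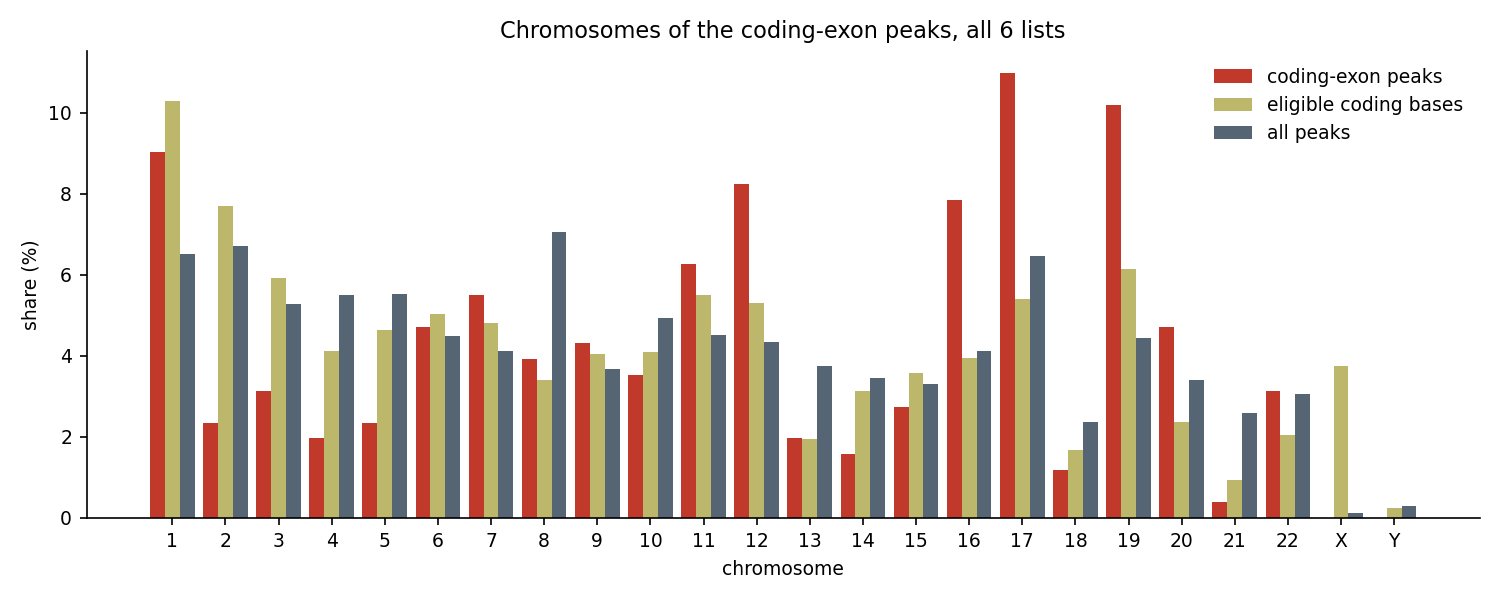
Share in percent of the 255 coding-exon peaks (red), of eligible coding bases (olive) and of all 16214 peaks (grey) on each chromosome. The red bar is at least 1.5 times the olive bar on chromosomes 12, 16, 17, 19, 20 and 22, and there is none on X and Y.

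Of the 17 tests on coding-exon peaks, 0 passed 0.05 after Benjamini-Hochberg adjustment of the exact permutation p-values and 2 had an unadjusted p under it, namely GC content against intronic peaks and runs of C on the coding against the template strand. Windows on eligible coding bases had the same sign in both, so neither sign is particular to the peaks. The 11 group comparisons had adjusted p-values between 0.524 and 1 and could not have reached 0.05 in this design. The 6 within-list tests could reach no exact sign-flip permutation p below 0.0312. After adjustment over 6 tests such a p passes 0.05 only if most of the 6 are equally low.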

How the data were processed

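hnRNPK ChIP-seq of HCT116 cells gave 12 samples, of which 6 are IP and 6 are input libraries. The methods state that cutadapt trimming, Bowtie2 alignment to GRCh38 and MACS2 peak calling, for each IP library against its input, were the steps used by the authors. The deposited lists hold a position, a name and a score per peak, with no header. The authors' score appears to be the negative log10 of a p-value times 10, as its floor of 50 would be 1e-05, whereas the methods give a cutoff on q, and the settings behind the lists are not certain. Replicates were not pooled. No read counts are given, so depth is unknown. Of 16768 deposited peaks, the 16214 on chromosomes 1 to 22, X and Y were used, and the number of other value columns left unused was 0.

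Lists were read with Python 3.11.15, pandas 2.3.3 and numpy 2.4.6, sequence was taken from hg38 with pysam, and genes from GENCODE release 44, which may differ from the annotation of the authors. Where transcripts overlap, a base was given to the canonical one, and otherwise to the one with the longest CDS. The same assignment over all eligible coding bases gave the base-weighted values. Exon rank and length refer to that transcript, and relative rank is the rank minus 0.5 over the number of exons. Lists, not peaks, are the replicates. Groups were compared by exact permutation tests of the list means and within-list differences by exact sign-flip tests, all two-sided, with Benjamini-Hochberg adjustment over 11 and 6 tests. Position assignment, GC and run counts were checked against a direct search, and the tests were tested on simulated data.

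Named regions were the 12 with members in the most lists, ties by mean score position, the top member of each list, regions of both lists of 1 group alone, up to 8 host genes with the most separate regions, and HNRNPK and colorectal cancer driver genes that held a member. No sequence from chromosome 8 is printed. The members, gene families and rules were chosen with earlier results of these data known. Alternatives were peaks above the median score, the 1000 highest-scoring peaks, any overlap with a CDS segment, 2 kb from gene ends, canonical transcripts, each list left out and the replicate number as a block. Peaks over 1 kb from every transcript start, leaving out chromosome X and a crossed pairing were added after seeing the data.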

Additional observations from a re-analysis of the deposited data

Results flagged for a closer look

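The median host exon length lay above the base-weighted median of 187 bases in both CRLM1-OE lists and in both empty control lists, and below it in both antisense control lists. The mean offset of CRLM1-OE exceeded that of the antisense control by 42.75 bases, and the mean offset of the empty control exceeded it by 83 bases. These values drew attention because every list of one group moved one way and every list of the other moved the opposite way. The exact permutation p of each difference was 0.333, the smallest that 2 lists against 2 allow, so the design cannot test them further. The antisense control lists held 36 and 35 coding-exon peaks with medians of 175.5 and 168 bases. With peaks above the median score, antisense control replicate 1 was at 190 bases and empty control replicate 1 at 174.5 bases. With the 1000 highest-scoring peaks these lists were at 189.5 and 187 bases. The pattern thus did not hold under either setting, though it did with 2 kb from gene ends and with canonical transcripts.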

How the results depend on the processing

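Of the alternatives, 2 kb from gene ends and leaving out the X chromosome changed no direction and no call. With 2 kb the share minus the empty control fell from 0.438 to 0.147 points, that minus the 4 controls from 0.275 to 0.152 and the share minus that of the genome from 0.519 to 0.294. The share minus the antisense control rose from 0.112 to 0.157 points. A group comparison could not pass 0.05 under any of them. With peaks above the median score, the share of coding-exon peaks in CRLM1-OE minus the antisense control became -0.160 percentage points, host exon length in CRLM1-OE minus the empty control 22.75 bases, relative rank in CRLM1-OE minus the antisense control -0.0739 and relative rank minus the base-weighted mean 0.0042. With the 1000 highest-scoring peaks those for exon length and for rank against the antisense control became 106.75 bases and -0.0264. With canonical transcripts, rank against the antisense control became -0.0187 and rank minus the base-weighted mean 0.0011. With any overlap with a CDS segment, rank became -0.0207 against the empty control and -0.00065 against the antisense control, and exon length minus the base-weighted median -41.6 bases. Under that rule 5 within-list differences passed 0.05, with an adjusted exact permutation p of 0.0375 each: this reversed exon length, relative rank at -0.0354, GC content against intronic peaks at 8.53 points, runs of C on the coding minus the template strand at 1.70 per kb, and the share minus that of the genome at 4.85 points. The genomic share used there counts bases, while a wide peak overlaps a CDS segment more often than its midpoint does. It also overlaps a short exon more often than that exon's share of bases. Exon length and relative rank are set against base-weighted values, so the values for them and for this share do not compare like with like. The differences in GC content and in runs of C have the sign that exons at large also show. Their exact sign-flip permutation p was 0.0312 under this rule as under the main one. Only the adjustment, which depends on the other tests, differed. Over 1 kb from every transcript start, the share against the antisense control became -0.160 points, that against the 4 control lists -0.0763 points and rank minus the base-weighted mean 0.0275.

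Leaving out 1 list at a time changed a direction in 3 results. GC content in CRLM1-OE minus the empty control ranged from -2.78 points without empty control replicate 1 to 11.6 points without empty control replicate 2, relative rank in CRLM1-OE minus the antisense control from -0.0167 to 0.0319, and relative rank minus the base-weighted mean from -0.0122 to 0.0081. The share in CRLM1-OE minus the empty control was 0.438 points with both empty control lists, 0.0454 when replicate 1 of that control was left out and 0.830 when replicate 2 was, and the log2 number of peaks minus the empty control was 1.36, 0.55 and 2.17 in that order. GC content minus the antisense control ranged from 0.357 points without antisense control replicate 2 to 3.77 without antisense control replicate 1. Minus the 4 controls the share was 0.0899 points without empty control replicate 1 in place of 0.275.

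With the replicate number as a replicate block, the share in CRLM1-OE minus the empty control was 0.438 points (exact sign-flip p = 0.5, the smallest that 2 pairs allow). The mean of the paired differences equals the difference of the means, so this setting could change no direction. It could also make no call. Replicate differences in peaks per 5 Mb bin correlated between groups at -0.364 for CRLM1-OE and the empty control, 0.050 for CRLM1-OE and the antisense control and 0.041 for the 2 controls, so the numbers do not pair the lists. Crossing the numbers of CRLM1-OE and the empty control, added after seeing the data, called 0 of 5 comparisons, and with 2 pairs it could call none. The depth of the libraries is unknown, and how it limits the number of coding-exon peaks was not tested.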
